A study of Mus musculus with 6 samples.

Results

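Kainate receptors are glutamate-gated ion channels built from 5 subunits, and the Neto proteins are their auxiliary subunits. The 7 genes that encode them, Grik1 to Grik5, Neto1 and Neto2, were chosen by name and were all found among the 55471 genes of a hippocampal RNA-seq series. The series compared 3 p300-ifKO mice with 3 control mice, with 1 library per mouse, all male, C57BL/6 and 3 to 6 months old. In p300-ifKO mice (Ep300_flox;Camk2a_creERT2) a tamoxifen-activated Cre recombinase under Camk2a cut floxed Ep300 in excitatory neurons of the forebrain, which left a truncated p300 protein without its lysine acetyltransferase activity. Tamoxifen at 20 mg/mL was given 5 times to mice of both groups. By the protocol the controls are littermates that lack creERT2, although their library descriptions read Camk2a_creERT2. Interneurons and glia of the p300-ifKO hippocampus keep Ep300, because the driver is restricted to excitatory neurons. Whole tissue was sequenced, so fewer cells of a type and less RNA per cell cannot be told apart in any value below.

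A kainate receptor is a tetramer. GluK1, GluK2 and GluK3, encoded by Grik1, Grik2 and Grik3, are the low-affinity subunits and can form channels on their own, whereas GluK4 and GluK5, encoded by Grik4 and Grik5, bind agonist with high affinity and need a low-affinity partner to reach the membrane as a working channel. Neto1 and Neto2 are single-pass membrane proteins that slow the gating of these channels and change their agonist affinity. In the hippocampus the receptors are best known at mossy fibre synapses onto CA3 pyramidal cells, where they give a slow postsynaptic current and also modulate transmitter release, and in interneurons.

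The 7 genes lie on different chromosomes, of which positions are given on GRCm38, and the counts were made over all their annotated exons. Grik1 (ENSMUSG00000022935) spans chr16:87895900-88290265 on the minus strand, Grik2 (ENSMUSG00000056073) chr10:49094833-49788766 on the minus strand, and Grik3 (ENSMUSG00000001985) chr4:125490700-125714173 on the plus strand. Grik4 (ENSMUSG00000032017) spans chr9:42518135-42944493 and Grik5 (ENSMUSG00000003378) chr7:25009849-25072346, both on the minus strand. Neto2 (ENSMUSG00000036902) spans chr8:85636588-85700924 on the minus strand. Grik2 was the longest gene, at 693.9 kb with 13246 exonic bases, and Grik5 the shortest, at 62.5 kb with 5168 exonic bases. The GC content of the longest annotated transcript ran from 36.49% in Neto2 and 37.94% in Grik2 to 61.68% in Grik5.

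The 5 subunits are paralogs, so it matters whether a read of 50 bases could be assigned to the wrong one. No exonic stretch of 50 bases was shared between any 2 of the 7 genes. Between 0 and 0.448% of the stretches of the 5 subunits and Neto2 occurred in some other gene, and for Neto1 this was 2.037%, all of it with an antisense transcript (AC113599.1) that had 1 to 3 counts per library. The closest coding windows of 50 bases differed by at least 2 bases in each of the 10 subunit pairs, and 3 pairs came that close, with 48 of 50 bases identical. These 3 pairs are shown because they are where the paralogs are hardest to tell apart. Capitals mark the bases that differ within a pair.
Grik1, chr16:87940573-87940622, minus strand, exon 13 of 18, against Grik2: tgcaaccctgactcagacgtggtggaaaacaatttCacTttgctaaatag
Grik2, chr10:49244360-49244409, minus strand, exon 12 of 16, against Grik1: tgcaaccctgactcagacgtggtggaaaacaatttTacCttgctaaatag
Grik3, chr4:125694033-125694082, plus strand, exon 13 of 16, against Grik4: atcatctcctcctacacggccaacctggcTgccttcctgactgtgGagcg
Grik4, chr9:42543855-42543904, minus strand, exon 15 of 19, against Grik3: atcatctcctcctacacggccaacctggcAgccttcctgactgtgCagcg
Grik4, across an exon junction, against Grik5: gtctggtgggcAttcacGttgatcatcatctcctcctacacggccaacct
Grik5, across an exon junction, against Grik4: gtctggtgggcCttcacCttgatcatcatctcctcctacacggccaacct
The other 7 pairs were less alike, down to 41 of 50 bases for Grik2 and Grik5.

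The 6 libraries held 23151568 to 28433823 counts. Values below are counts divided by the size factor of the library, the normalized counts, and a mean is followed by its SD over 3 mice. Ep300 itself, counted over the whole gene, had 1545, 1474 and 2334 normalized counts in controls 1, 2 and 3 and 478, 1350.3 and 912 in p300-ifKO 1, 2 and 3. All p300-ifKO libraries were below all controls, and replicate 2 was the nearest to them (log2 fold change -0.97 ± 0.33 SE, adjusted p 0.991 by DESeq2). Without p300-ifKO 2 the log2 fold change of Ep300 was -1.36 (adjusted p 0.000375), and with 1 surrogate variable it was -0.49 (adjusted p 0.00205, both DESeq2), so Ep300 was called in those fits. It was not called with length and GC offsets (-0.83, adjusted p 0.906) or with a replicate block (-1.06, adjusted p 0.134, both DESeq2). Esr1, part of which is carried in creERT2, had 87.2 to 109 normalized counts in the controls and 2416 to 4217 in p300-ifKO, and Arsi, a gene near Camk2a, had 24.2 to 38.8 and 168 to 204. The study describes a rise of both genes as a trait of mice that carry the Camk2a-creERT2 driver. Both genes were low in each control library. The libraries also differed in a length trend, the Spearman correlation across 17054 genes between the deviation of a gene in 1 library and its exonic length. The trend was 0.18, 0.16 and 0.41 in controls 1, 2 and 3 and -0.51, 0.42 and -0.28 in p300-ifKO 1, 2 and 3, so p300-ifKO 1 and 3 stood apart from the other 4 libraries with fewer counts in long genes. Ep300 is itself long, with 14273 exonic bases, and its normalized counts above are not corrected for the trend.

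Compared per kb of exonic length, Grik5 was the most abundant of the 7 genes and Grik1 the least. In control hippocampus the level was 1221 ± 55.6 normalized counts per kb for Grik5, 590 ± 28.2 for Neto1 and 313 ± 25.2 for Grik4 (SD, n = 3). Grik2 followed at 191 ± 6.97, Neto2 at 181 ± 12.4, Grik3 at 156 ± 14.5 and Grik1 at 71.9 ± 2.96 normalized counts per kb. Grik5 thus exceeded 95.4% of the 17045 genes ranked, and Grik1 exceeded 42.2%. Grik5, Neto1 and Grik4 kept this order in all 6 libraries and did not overlap. Grik2 and Neto2 overlapped, with Grik2 above Neto2 in 2 of 6 libraries, and the ranges of Neto2 and Grik3 overlapped too, although Neto2 was above Grik3 in each library. Dividing by the longest annotated transcript left the order in controls as it was but raised Grik1 to 132 ± 5.44 per kb, because its longest transcript has 3655 bases against 6721 exonic bases in all.

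Within a library the high-affinity subunit Grik5 exceeded the other high-affinity subunit, Grik4, by 3.75 to 4.44 times per kb. Neto1, the more abundant auxiliary subunit, exceeded Neto2 by 2.93 to 3.69 times. Grik2, which carries much of the kainate current in hippocampal principal cells, exceeded Grik3 by 1.16 to 1.56 times per kb of exonic length. The groups overlapped in these 3 ratios. The ratio of Grik5 to Grik1, the most and the least abundant subunit, did not overlap, at 16.9 to 17.1 in controls and 17.6 to 21.2 in p300-ifKO, and was highest in p300-ifKO 1 and 3. It was not tested, and it was the only ratio looked at whose groups separated. Grik5 to Grik2 (5.86 to 10.6 over all libraries) and Grik4 to Grik2 (1.46 to 2.39) overlapped as well. With the length and GC offsets described below, the log2 fold change was 0.02 for Grik5 and 0.00 for Grik1. The size of such ratios depends on the length used. Per kb of the longest annotated transcript, control means were 268 for Grik2 against 156 for Grik3. For Grik5 and Grik1 they were 1554 and 132.

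**Figure D1:**
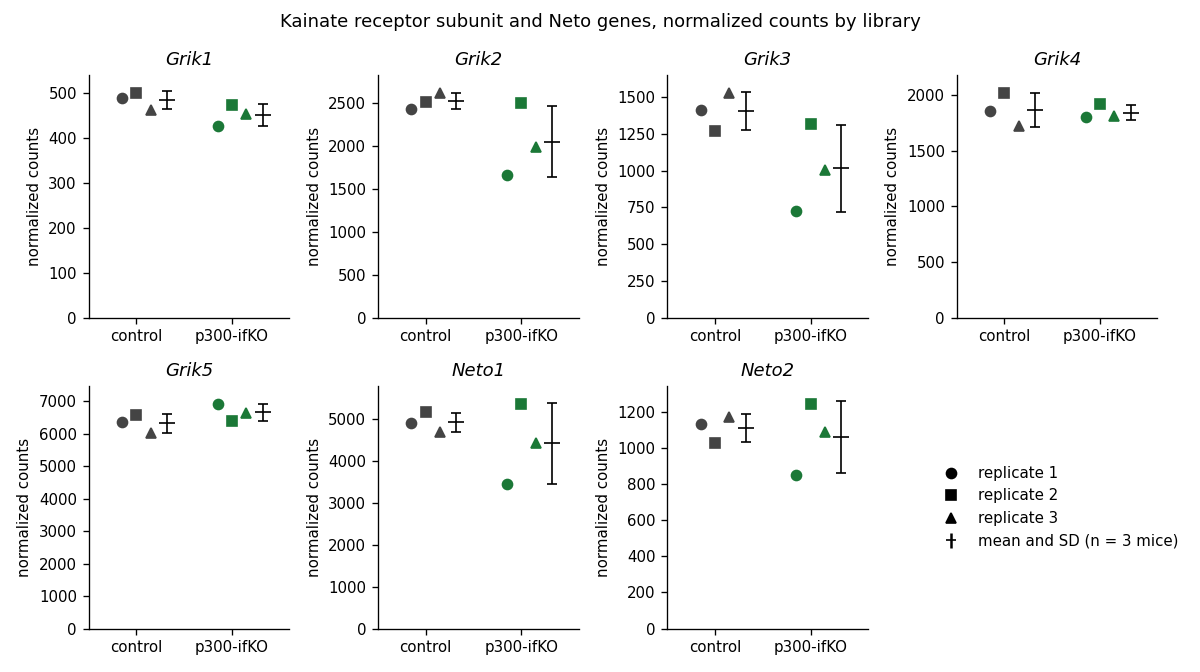
Normalized counts of the 7 genes in each library, with the 3 control libraries in grey and the 3 p300-ifKO libraries in green, the marker giving the replicate, and the bar giving mean and SD. In Grik2, Grik3, Neto1 and Neto2 the p300-ifKO libraries are widely spread with replicate 1 lowest and replicate 2 at or above control levels, whereas Grik1, Grik4 and Grik5 are tight in both groups.

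None of the 7 genes changed past the threshold between p300-ifKO and control. DESeq2 called 0 of 7 at an adjusted p under 0.05, against 0.00610% of all 32773 genes tested (2 genes), and edgeR also called 0 of 7. The 2 genes were the driver-related Esr1 and Arsi (DESeq2, adjusted p 4.47e-92 and 2.98e-17). At an unadjusted p under 0.05 DESeq2 counted 1 of 7, Grik3, against 1.32% of all genes, and edgeR counted 0. The groups overlapped in all 7 genes, where 6.64% of all genes tested had groups that did not overlap. The estimate was below 0 for 6 genes and above 0 for Grik5, with a median log2 fold change of -0.10 against -0.05 over all genes tested and -0.01 over the 17071 genes with a mean above 10 normalized counts.

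Among the low-affinity subunits, Grik3 had the lowest estimate. It had 1411, 1269 and 1529 normalized counts in controls 1, 2 and 3, and 726, 1316 and 1006 in p300-ifKO 1, 2 and 3. Replicates 1 and 3 of p300-ifKO lay below each control, and replicate 2 lay between the lowest and the middle control. The group means were 1403 ± 130.0 and 1016 ± 295 (SD, n = 3), which gave a log2 fold change of -0.47 ± 0.22 SE and a 95% interval from -0.90 to -0.03 (DESeq2, unadjusted p 0.0352, adjusted p 0.991).

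Grik2 showed the same layout with a smaller difference. It had 2441, 2516 and 2625 normalized counts in the controls and 1670.1, 2502 and 1994 in p300-ifKO 1, 2 and 3. Replicates 1 and 3 were again below all controls, and replicate 2 fell within their range. The means were 2527 ± 92.3 and 2055 ± 419 (SD, n = 3), and its log2 fold change was -0.30 ± 0.17 SE, the interval running from -0.63 to 0.04 (DESeq2, adjusted p 0.991).

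Grik1, whose hippocampal expression is best known from interneurons, had 488, 500.1 and 461 normalized counts in the controls and 425, 473 and 453 in p300-ifKO 1, 2 and 3. Its groups overlapped within a narrow range, from 425 to 500.1. The estimate was -0.10 ± 0.13 SE on the log2 scale, between -0.36 and 0.16 at 95% confidence (DESeq2, adjusted p 0.991).

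The high-affinity subunits had the smallest spread of the 7 genes between p300-ifKO mice. Grik4, a subunit of CA3 and dentate granule cells, had 1858, 2020.3 and 1720 normalized counts in the controls and 1799, 1917 and 1811 in the p300-ifKO libraries. All 3 p300-ifKO values sat inside the control range. Its log2 fold change was -0.02 ± 0.12 SE, the interval running from -0.25 to 0.22 (DESeq2, adjusted p 0.997).

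Grik5, which encodes the high-affinity subunit most widespread in the brain, had 6360.5, 6570.5 and 6002 normalized counts in the controls and 6921, 6389.8 and 6635 in p300-ifKO 1, 2 and 3. It was the one gene of the 7 in which p300-ifKO 1 was the highest library. The means were 6311 ± 287 and 6649 ± 266 (SD, n = 3), and the log2 fold change was 0.08 ± 0.10 SE, the interval running from -0.13 to 0.28 (DESeq2, adjusted p 0.991).

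The auxiliary subunits varied more between p300-ifKO mice than between the groups. Neto1 (ENSMUSG00000050321), which binds kainate and also NMDA receptors, lies on chromosome 18 from 86394952 to 86506718, plus strand. It had 4916, 5164 and 4692 normalized counts in the controls and 3455, 5374 and 4433 in p300-ifKO 1, 2 and 3, so that replicate 1 was the lowest and replicate 2 the highest of the 6 libraries. Neto2, which binds kainate receptors and the potassium chloride cotransporter KCC2, had 1134.5, 1028 and 1175 in the controls and 854, 1248 and 1088 in p300-ifKO 1, 2 and 3, with the same library at each end. The log2 fold change was -0.16 ± 0.18 SE for Neto1 (interval -0.51 to 0.19) and -0.06 ± 0.17 SE for Neto2 (interval -0.40 to 0.28), each with an adjusted p of 0.991 by DESeq2.

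The 7 genes differed in their spread between p300-ifKO mice. The coefficient of variation between p300-ifKO mice was 29.0% for Grik3, 21.7% for Neto1, 20.4% for Grik2 and 18.6% for Neto2, where counting error alone gives 1.47 to 3.06%. It was 5.30% for Grik1, 3.998% for Grik5 and 3.51% for Grik4, where counting error gives 4.63%, 1.21% and 2.29%. Among controls the coefficient lay between 3.65% for Grik2 and 9.26% for Grik3. For Grik1, with 396 to 535 counts per library, the spread between mice was close to counting error in both groups.

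**Figure D2:**
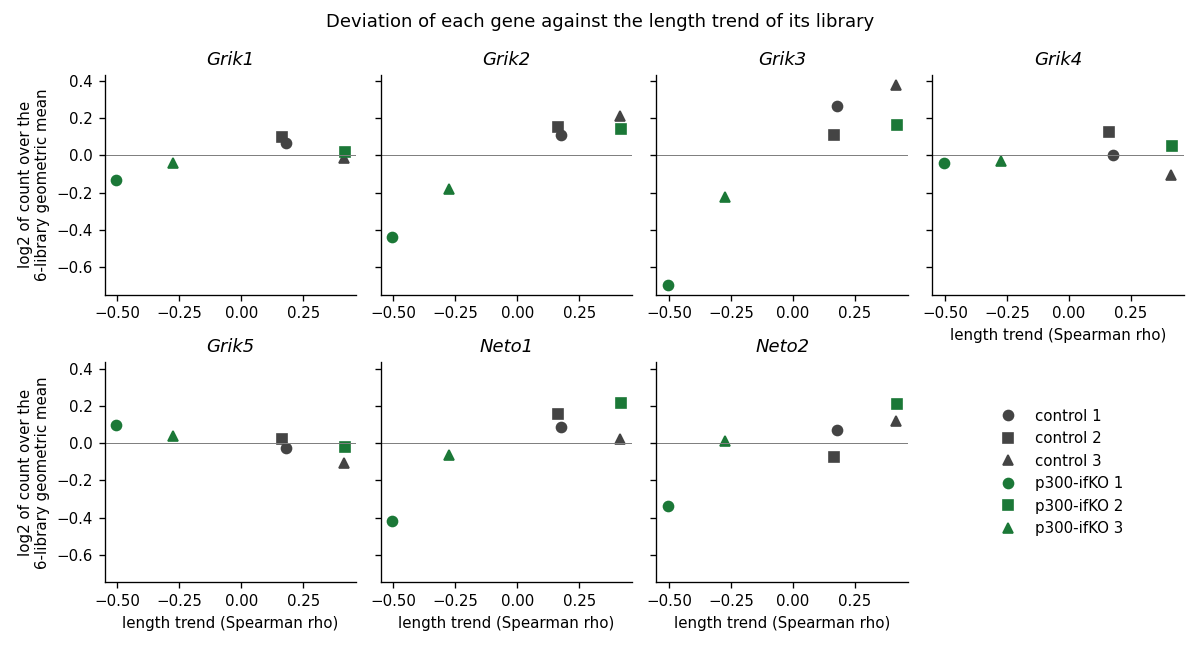
Log2 of the normalized count of each gene over its geometric mean in the 6 libraries, plotted against the length trend of the library, with control libraries in grey and p300-ifKO libraries in green. Grik2, Grik3 and Neto1 are lowest in the 2 libraries with a negative trend, p300-ifKO 1 and 3, whereas Grik5 is highest in them.

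Among the 4 widely spread genes, Grik2, Grik3 and Neto1 were lowest in the libraries with a negative length trend, p300-ifKO 1 and 3. In p300-ifKO 1, the library with the lowest trend, the log2 ratio to the geometric mean of the 6 libraries was -0.69 for Grik3, -0.44 for Grik2, -0.42 for Neto1 and -0.34 for Neto2, and 0.10 for Grik5. In p300-ifKO 2, whose trend was like that of control 3, it was 0.16 for Grik3, 0.14 for Grik2, 0.22 for Neto1, 0.21 for Neto2 and -0.02 for Grik5. In p300-ifKO 3, whose trend was also negative, it was -0.22 for Grik3, -0.18 for Grik2 and -0.06 for Neto1. Neto2 was not low there, at 0.01 against -0.07 in control 2, and Grik5 stood at 0.04. These genes also differ in the GC content of their longest transcript. GC content trended against length in each library, with a correlation of 0.33 in p300-ifKO 1 and -0.22 in p300-ifKO 2.

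With smooth length and GC offsets for each library, the spread between p300-ifKO mice came down to 3.32% for Neto1 and 5.61% for Neto2, and to 11.1% for Grik2 and 20.4% for Grik3. Corrected counts of Grik2 were 2339, 2434 and 2120 in the controls and 2546, 2154 and 2080 in p300-ifKO 1, 2 and 3, and the log2 fold change was -0.03 ± 0.12 SE. Corrected Grik3 counts were 1390, 1284 and 1415 in the controls and 823, 1245 and 1042 in p300-ifKO 1, 2 and 3. All corrected p300-ifKO values of Grik3 were thus below all controls, where 3.38% of 17046 genes were separated in that direction, and the log2 fold change was -0.39 ± 0.16 SE (DESeq2, unadjusted p 0.0133, adjusted p 0.954). Corrected Neto2 counts did not overlap either, in the other direction, at 995 to 1085 in the controls and 1095 to 1214 in p300-ifKO, where 4.66% of genes did so (DESeq2, log2 fold change 0.14 ± 0.10 SE, adjusted p 0.954). Grik1, Grik4, Grik5 and Neto1 lay between 0.00 and 0.03 on the log2 scale with the offsets. Of the 7 genes 0 were called in this fit. The same offsets raised the spread between controls for 5 of the 7 genes, among them Neto1 (from 4.79 to 9.96%), Grik1 (from 4.12 to 8.26%) and Grik4 (from 8.07 to 10.3%), and lowered it for Grik3 (from 9.26 to 5.11%) and Neto2 (from 6.84 to 4.54%).

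**Figure D3:**
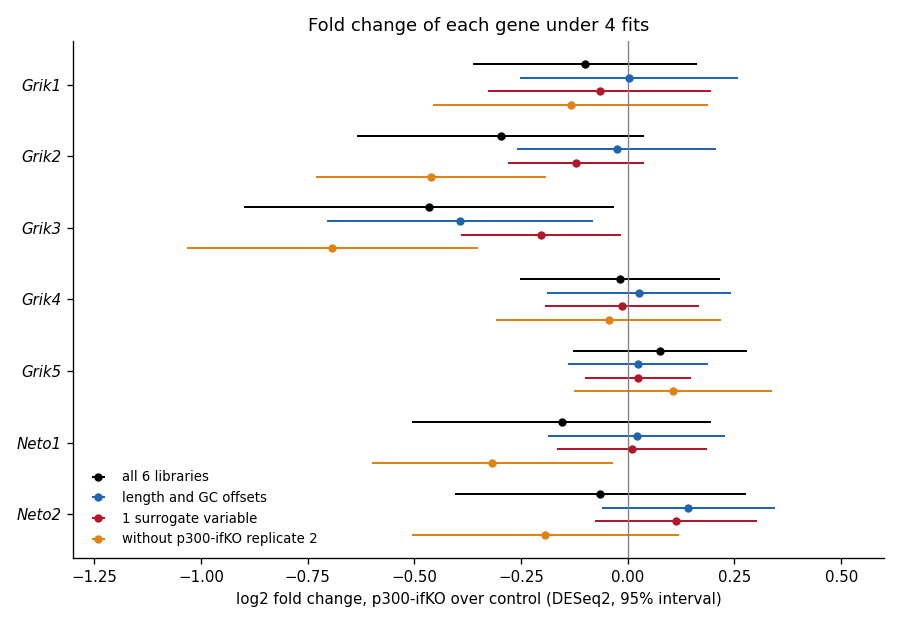
Log2 fold change of p300-ifKO over control for each of the 7 genes with its 95% interval, from DESeq2 on all 6 libraries (black), with length and GC offsets (blue), with 1 surrogate variable (red) and without p300-ifKO replicate 2 (orange). The Grik3 interval lies below 0 in these 4 fits, with estimates from -0.69 to -0.20. In fits not drawn it includes 0 without control 1, control 3, p300-ifKO 1 or p300-ifKO 3. The Grik2 estimate shrinks to -0.03 with the offsets, and the Neto1 and Neto2 estimates change sign with the offsets and with the surrogate variable.

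Leaving out p300-ifKO 2, the knockout library with the most Ep300 counts, gave calls for 2 of the 7 genes. Grik3 then fell by 0.69 ± 0.17 SE on the log2 scale (adjusted p 0.0147) and Grik2 by 0.46 ± 0.14 SE (adjusted p 0.0268, both DESeq2), whereas the other 5 did not pass. In that fit 3.79% of the 11726 genes with an adjusted p were called lower. The 2 p300-ifKO libraries that remain are those with a negative length trend, so the group and the trend cannot be told apart there. Leaving out p300-ifKO 1 instead brought the Grik3 estimate to -0.27 and the Grik2 estimate to -0.17, and 0 of 7 were called.

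The make-up of the subunit RNA pool was then compared as the share of each subunit in the summed counts per exonic length of Grik1 to Grik5. These are shares of RNA over all cells of the tissue, and subunit protein and assembled receptors were not measured. Grik5 made up 62.9%, 63.1% and 61.5% in controls 1, 2 and 3 and 70.1%, 63.0% and 67.0% in p300-ifKO 1, 2 and 3. Grik4 made up 15.3 to 16.8% in all 6 libraries. The high-affinity subunits together came to 78.5 ± 1.54% in controls and 82.7 ± 3.26% in p300-ifKO (SD, n = 3, exact permutation p 0.2). That difference of 4.15 percentage points was 1.90 with length and GC offsets, 2.55 without p300-ifKO 1 and 5.81 without p300-ifKO 2. For Grik5 alone it was 4.15 points, and 1.47 with the offsets.

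Low-affinity subunits took the rest of the RNA pool. The Grik2 share was 9.42%, 9.42% and 10.5% in the controls and 6.60%, 9.62% and 7.85% in p300-ifKO 1, 2 and 3 (exact permutation p 0.3), and the Grik3 share was 8.04%, 7.02% and 9.03% against 4.23%, 7.47% and 5.84% (exact permutation p 0.2). In both, p300-ifKO 2 lay among the controls. With length and GC offsets the Grik2 difference went from -1.76 to -0.09 percentage points, whereas the Grik3 difference went from -2.18 to -1.84. Without p300-ifKO 1 they were -1.05 and -1.37. The Grik1 share alone did not overlap between groups, at 3.64 to 3.71% in controls and 3.31 to 3.58% in p300-ifKO, which gives an exact two-sided permutation p of 0.1, the smallest that 3 against 3 libraries allow, and 0.4 after adjustment over the 8 quantities tested. With length and GC offsets the group means of the Grik1 share were 3.56% and 3.60%, so the direction turned.

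**Figure D4:**
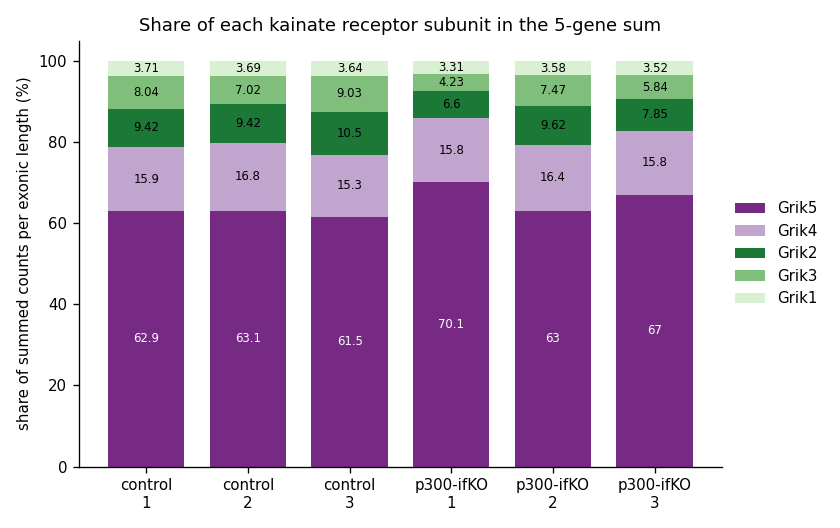
Share of each subunit in the summed counts per exonic length of Grik1 to Grik5, in percent, 1 bar per library. Grik5 fills 61.5 to 70.1% of every bar and is largest in p300-ifKO 1 and 3, where the Grik2 and Grik3 shares are smallest.

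Auxiliary subunits were set against the subunit sum in the same way. There were 39.5, 39.0 and 39.9 Neto counts per 100 subunit counts, both per length, in the controls and 28.9, 43.1 and 36.9 in p300-ifKO 1, 2 and 3 (exact permutation p 0.7). The p300-ifKO libraries lay on both sides of the controls, and the difference of -3.15 turned to 1.59 with the offsets. Neto1 made up 76.4 ± 2.08% of the Neto sum in controls and 75.2 ± 0.632% in p300-ifKO (SD, n = 3, exact permutation p 0.6).

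Summed over its 5 genes, the kainate family was level between groups, at 1953 ± 64.6 normalized counts per kb in controls and 1931 ± 28.6 in p300-ifKO (SD, n = 3). Grik5 alone makes up most of that sum. The AMPA family, which carries the fast excitatory current, summed to 7692 ± 250 and 7032 ± 1143 per kb, and the NMDA family, the coincidence detectors of synaptic plasticity, to 2321 ± 58.9 and 2184 ± 217. Within a library AMPA genes exceeded kainate genes by 3.13 to 4.20 times and NMDA genes did so by 1.06 to 1.26 times. The groups overlapped in all of these sums.

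**Figure D5:**
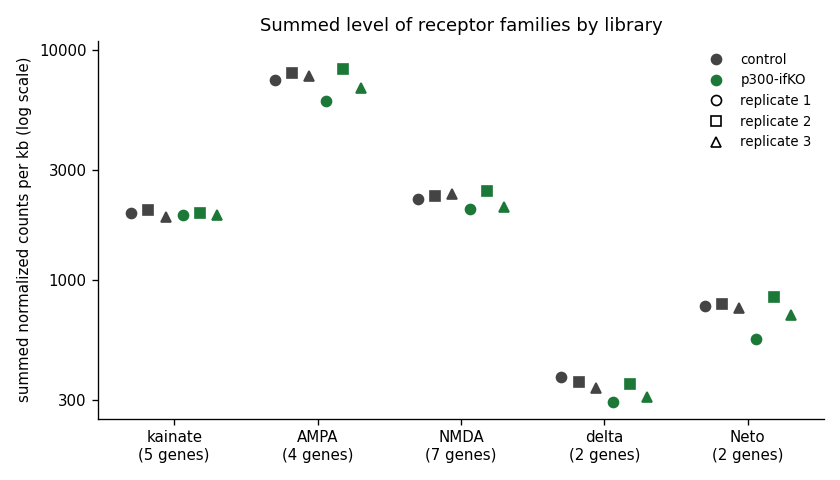
Summed normalized counts per kb of the kainate, AMPA, NMDA and delta receptor families and of the Neto genes, on a log axis, with control libraries in grey and p300-ifKO libraries in green. The 6 kainate sums lie between 1887 and 2016, whereas the AMPA sums run from 5987 in p300-ifKO 1 to 8252 in p300-ifKO 2.

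The 13 other ionotropic glutamate receptor genes gave a similar picture to the 7 genes. DESeq2 called 0 of 13, none had an unadjusted p under 0.05 (edgeR also called 0), 11 estimates were below 0 and the median log2 fold change was -0.17. The highest estimate was that of Grin2c, an NMDA subunit, at 0.06 ± 0.12 SE, and the lowest was that of Grin3b, at -1.02 ± 0.96 SE, which rests on 1 to 7 counts per library. Groups did not overlap in 2 of the 13, Grin3b and the AMPA subunit Gria3, named after its values were seen, where this held for 6.64% of all genes tested. Gria3 had 7283 to 7404 normalized counts in the controls and 4726, 7143 and 5992 in p300-ifKO 1, 2 and 3, so that replicate 1 was the lowest here as in Grik2 and Grik3. Without p300-ifKO 2 Gria3 was called lower (DESeq2, adjusted p 0.0293).

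Genes that act on kainate receptors were also read as a list, of which 16 of 17 were found. It holds the secreted organizers C1ql2 and C1ql3 and their partner Nrxn3, which recruit the receptors to mossy fibre synapses, scaffolds such as Dlg4, Grip1 and Pick1, factors of trafficking and protein modification, and the RNA editing enzymes Adar and Adarb1, which recode Grik1 and Grik2 transcripts. DESeq2 called 0 of 16, none had an unadjusted p under 0.05 (edgeR also called 0), 14 estimates were below 0 and the median log2 fold change was -0.13.

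C1ql3 had the lowest estimate of that list. It had 1434, 1438 and 1493 normalized counts in the controls and 503, 1454 and 923 in p300-ifKO 1, 2 and 3, a log2 fold change of -0.60 ± 0.31 SE (DESeq2, adjusted p 0.991). Replicates 1 and 3 were below all controls and replicate 2 was among them, as for Grik3. Without p300-ifKO 2 the log2 fold change of C1ql3 was -1.03 and it was called (DESeq2, adjusted p 0.00343), whereas it was -0.29 without p300-ifKO 1 and -0.23 with 1 surrogate variable, where it was not. Its relative C1ql2 did not share this layout, with a log2 fold change of -0.02 ± 0.22 SE.

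Cell-type composition was read from marker genes, since the 7 genes differ in the cells that express them. The summed CA3 markers ran from 5876 to 7047 normalized counts in controls and from 6062 to 6179 in p300-ifKO, the dentate granule cell markers from 9905 to 11538 and from 9938 to 10769, and the interneuron markers from 23314 to 26677 and from 22337 to 25390. None of these lists had a called gene, and the groups overlapped as well for the excitatory neuron, CA1, oligodendrocyte, oligodendrocyte precursor, endothelium and choroid plexus lists. No marker gene was at 0 in any library. Astrocyte sums were lower in each p300-ifKO library (93275 to 105010 against 106190 to 109750) and microglia sums higher (6962 to 7896 against 6286 to 6797), with 0 genes called in either list. These sums do not speak for every marker. The astrocyte sum was mostly Slc1a2, with means of 69110 in controls and 61760 in p300-ifKO. Slc1a2 has 13133 exonic bases and had 57802, 68192 and 59290 normalized counts in p300-ifKO 1, 2 and 3. It was thus lowest in the libraries with a negative length trend. The microglia sum was highest in p300-ifKO 1, at 7896. Neither sum was corrected for the length trend. Of 6 astrocyte estimates 4 were below 0 and 2 above, and of 6 microglia estimates 4 were above 0 and 2 below. Groups did not overlap for 1 gene of each list, against 6.64% of all genes tested. The part of these lists in the values of the 7 genes was not tested.

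Over the 6 libraries the log2 counts of the low-affinity subunits and the Neto genes went together. As a description with no test, Grik2 was most like Grik3 among the 7 genes (Pearson r 0.98), Neto1 most like Grik2 (0.91), Grik1 most like Neto1 (0.89) and Neto2 most like Grik3 (0.85). Grik4 was most like Grik1, at 0.67, and Grik5 resembled none of the others, with 0.29 to Grik4 as its best and -0.90 to Grik3 as the lowest of the 21 pairs. The libraries differ in the length trend described above, and these correlations were not corrected for it. For the summed subunits the most similar of 12248 genes were Rnf139 (0.99), Snapc4 (0.99) and Zdhhc2 (0.98).

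RefSeq promoters, from 250 bases before to 50 after the start on GRCm38.p6, were given for 5 of the 7 genes, with 6 promoters in all. The full cAMP response element TGACGTCA was in 0 of the 6 and in 1.79% of 32851 promoters. The shorter site TGACG, which the full element also contains, was in 1 of the 6, that of Grik2, and in 20.8% of all promoters, both strands searched.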

How the data were processed

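Hippocampal RNA was sequenced by the authors as single-end reads of 50 bases, trimmed with Trim Galore 0.6.4, aligned with STAR 2.6.1 to GRCm38, filtered on mapping quality and counted over Ensembl exons with Rsubread. A strand setting is not given in the sources used here. The deposited values are raw counts per gene, 1 column per mouse. Groups and replicate numbers came from the sample titles. Nothing says how mice were distributed over litters or days.

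The quality filter removes reads that match several places equally, which lowers counts in shared sequence. Symbols, coordinates and sequences came from GENCODE M21 on the same build, where 55230 genes (99.57%) matched and the exonic length of all 7 genes was that of the table. RefSeq promoters came from a table on GRCm38.p6.

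DESeq2 1.42.0 (R 4.3.3) was fitted to all genes, as in the methods of the study, with a two-sided Wald test, median-of-ratios size factors, default filters, no covariate and Benjamini-Hochberg adjustment at 0.05. Intervals are 95%. Alternatives were edgeR 4.0.16 (quasi-likelihood), TMM factors, a filter of 10 counts in 3 libraries, no independent filtering, a replicate block, length and GC offsets (mgcv 1.9.3, genes with a mean above 10), 1 surrogate variable (sva 3.50.0), each library left out and a threshold of 0.1. Shares were compared over libraries by exact permutation (scipy 1.17.1). Both count tests were also run on simulated counts. No 2 of the libraries agreed within sampling noise (lowest chi-square per degree of freedom 4.4 over 15 pairs).

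Named genes were the 7 genes, 3 genes that check the labels, the genes of 2 comparison lists at the lowest and highest change or an unadjusted p under 0.05, and the genes of most similar pattern. The partner gene with the highest change is not reported here. Likeness was ranked among genes with a mean of at least 100 normalized counts. The genes and lists were chosen with earlier results of these data known.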

Additional observations from a re-analysis of the deposited data

How the results depend on the processing

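With 3 mice per group, differences within the 95% intervals given in the report were not resolved. Of the 7 genes, 0 were called under every alternative except leaving out p300-ifKO replicate 2, which called 2 (leave-one-out range 0 to 2), and the same fit called 3 of the other receptor genes (range 0 to 3) and 4 of the partner genes (range 0 to 4). These were Gria2, Gria3 and Grin2b, and C1ql3 (log2 fold change -1.03), Nrxn3, Adar and Cdh2, all lower. Grik2, Grik3 and Grik5 kept their direction under all 14 alternatives, Grik3 between -0.69 and -0.20. With length and GC offsets the log2 fold change turned for Grik1 (0.00336), Grik4 (0.0266), Neto1 (0.0209) and Neto2 (0.142), and with 1 surrogate variable for Neto1 (0.0097) and Neto2 (0.113). With 1 library left out it also turned for Grik4 (0.0449 without control replicate 2, leave-one-out range -0.0711 to 0.0449) and for Neto2 (0.0692 without p300-ifKO replicate 1, range -0.193 to 0.0692). None of these passed the test, and the cause was not tested.

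For the shares, the difference (p300-ifKO minus control, in percentage points) turned with the offsets for Grik1 (0.0357) and Grik4 (0.425), and for Grik4 with no length (0.532) and with 1 library left out (leave-one-out range -0.37 to 0.393). Neto counts per 100 subunit counts turned with the offsets (1.59) and without p300-ifKO replicate 1 (0.548, leave-one-out range -6.55 to 0.548). Deviations of same-numbered mice correlated at 0.27, -0.28 and 0.13. These values cannot decide whether the numbers mark a pairing, because the libraries also differ in the length trend. With a replicate block in DESeq2, 0 of the 7 genes were called and the log2 fold change was -0.32 for Grik2 and -0.50 for Grik3.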
